A study of Homo sapiens with 3 samples.

Results

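ODC1 and 7 further genes of polyamine metabolism were followed here in single cells of a myeloma line and a stromal line. The 8 members (ODC1, OAZ1, OAZ2, AZIN1, AMD1, SRM, SMS and SAT1) were taken by symbol from the 43913 genes of the 3 count tables together. Each library is 1 condition: MM.1S, an established line of human multiple myeloma, cultured alone; HS-5, an established line of human bone marrow stromal cells, cultured alone; and both lines together for 4 h by the labels and methods, while legends in the paper give a shorter time. No agent was added to any of them. Drop-seq was used, in which each cell shares a droplet with a barcoded bead and its transcripts are counted as unique molecular identifiers (UMIs). The paper's methods give RPMI as the medium of MM.1S and DMEM as that of HS-5, both with serum, and the medium of the sequenced coculture is not given in the sources used here. Since a condition is 1 library, culture condition, medium and library preparation cannot be told apart, no test was made, and all intervals cover counting error only.

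Polyamines are small, positively charged metabolites that bind nucleic acids and that dividing cells need. Ornithine decarboxylase, encoded by ODC1, makes putrescine from ornithine and is the rate-limiting enzyme. AMD1 supplies the aminopropyl groups with which the synthases SRM and SMS make spermidine and then spermine, and SAT1 acetylates both so that they are broken down or exported. Antizymes (OAZ1, OAZ2) bind ODC and send it to the proteasome, their translation needs a ribosomal frameshift that polyamines stimulate, and the antizyme inhibitor AZIN1, an ODC homologue without enzyme activity, holds antizyme away from ODC. Transcript counts show neither this control of ODC protein nor the polyamines themselves.

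Barcodes with fewer than 200 detected genes were dropped. Coculture cells were assigned to a line by 63 MM.1S-specific and 164 HS-5-specific genes, each at least 50-fold apart between the monocultures. None of the 8 members was among them. This gave 3947 MM.1S cells in monoculture (10433017 UMIs, median 2201 per cell), 1646 in coculture (1330919 UMIs, median 669), 3732 HS-5 cells in monoculture (6142273 UMIs, median 971.5) and 2103 in coculture (2475789 UMIs, median 957). Coculture cells with a mixed share, 106 in number, were left out as doublets. The lines matched their labels in most of the markers: 9 of 10 plasma cell genes were higher in the MM.1S monoculture and 9 of 12 stromal genes in the HS-5 monoculture. SDC1 was higher in HS-5 (135 against 38.1 CPM), FN1 and CAV1 in MM.1S (810 against 252 and 457 against 356 CPM), and SLAMF7, COL6A3 and TAGLN were near 0 in both monocultures. Levels are UMIs per 1000000 UMIs (CPM) of a pool of cells, with exact Poisson 95% intervals. Changes are log2 ratios of CPM plus 1, and a gene was counted as past 2-fold at a log2 ratio of at least 1 in either direction and a mean of at least 10 CPM, which all 8 members reached.

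Since ODC1, SRM and AMD1 were the members past 2-fold in MM.1S, sequence near their starts is shown. The letters CACGTG, the E-box that MYC and MAX are known to bind, are in capitals. The sequences are RefSeq's (GRCh38.p14), 5′ to 3′ on the strand of the gene, without annotated exons. Sequence was kept up to 20 bases after a RefSeq start, and of this the longest run outside exons is shown. The first ODC1 stretch and those of SRM and AMD1 therefore end at the base before the annotated gene. They do not reach the RefSeq start. The second ODC1 stretch lies inside the gene's first intron and ends 20 bases after an inner start. The second of its CACGTG lies after that start.

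ODC1, chr2:10448505-10448577, minus strand: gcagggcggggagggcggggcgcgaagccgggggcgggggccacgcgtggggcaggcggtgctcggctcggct
ODC1 inner start, chr2:10447993-10448120, minus strand: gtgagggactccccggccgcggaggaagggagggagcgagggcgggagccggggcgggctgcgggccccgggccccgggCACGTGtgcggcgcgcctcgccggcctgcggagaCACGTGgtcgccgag
SRM, chr1:11060025-11060268, minus strand: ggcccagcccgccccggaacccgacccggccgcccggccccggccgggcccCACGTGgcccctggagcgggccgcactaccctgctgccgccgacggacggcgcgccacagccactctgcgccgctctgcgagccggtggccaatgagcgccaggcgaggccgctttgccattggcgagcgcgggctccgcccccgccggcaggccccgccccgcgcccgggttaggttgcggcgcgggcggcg
AMD1, chr6:110874535-110874769, plus strand: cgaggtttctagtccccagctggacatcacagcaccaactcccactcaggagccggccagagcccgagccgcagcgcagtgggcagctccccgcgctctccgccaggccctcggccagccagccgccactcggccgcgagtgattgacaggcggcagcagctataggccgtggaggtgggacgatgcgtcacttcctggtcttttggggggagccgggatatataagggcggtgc

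RefSeq windows of 300 bases (250 before and 50 after a start) matched 7 of the 8 members, with 10 windows. CACGTG, which reads the same on both strands, stood 2 times at the inner start of ODC1, 1 time at SRM and not in the other 8 windows, the 3 of AMD1 included. Of all 35116 windows, 7.26% held it. Further letters were read in the same windows. The GC box (GGGCGG, 45.0% of all windows) stood in every member window but that of SAT1. The exact letters TATAAA of the TATA box (11.5%) stood only at OAZ1. Variants of these letters were not counted. The AMD1 stretch above holds tatataag near its end, which TATAAA does not match. The cAMP response element (TGACGTCA, 1.85%) and the STAT letters (TTCNNNGAA, 7.66%) stood in none. A match of letters is a description of the sequence and not a bound site. MYC itself had 788 CPM in MM.1S monoculture cells and 378 in the MM.1S cells of the coculture, a log2 ratio of -1.06. A link between MYC and the levels of ODC1 or SRM was not tested. In HS-5 cells MYC had 101 and 132 CPM.

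ODC1 was low in MM.1S cells cultured alone and, after coculture, somewhat above its level in stromal cells. ODC1 lies on chromosome 2 from 10439968 to 10448504 (minus strand; all gene positions are GRCh38, GENCODE release 29). Its level was 65.5 CPM in the MM.1S monoculture (60.6 to 70.6, 683 UMIs). The MM.1S cells of the coculture had 538 CPM (499 to 579, 716 UMIs). HS-5 cells had 447 CPM alone (430 to 464, 2745 UMIs) and 433 CPM in coculture (407 to 459, 1071 UMIs). The MM.1S monoculture therefore lay apart from the other 3 pools, the intervals of both HS-5 pools overlapped, and MM.1S cells in coculture were the highest. In MM.1S cells the coculture level was 8.22-fold the monoculture level (7.39 to 9.14), a log2 ratio of 3.02. Between the same pools the mitochondrial share of UMIs went from 6.82 to 4.04% and that of ribosomal protein genes from 16.4 to 10.7%, and the log2 ratio scaled without both was 2.87. ODC1 was chosen by this difference, so it is described and not tested. The other members were chosen by their place in the pathway, with earlier results of these data known. In HS-5 cells the log2 ratio was -0.05, a fold of 0.968 (0.901 to 1.04).

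**Figure D1:**
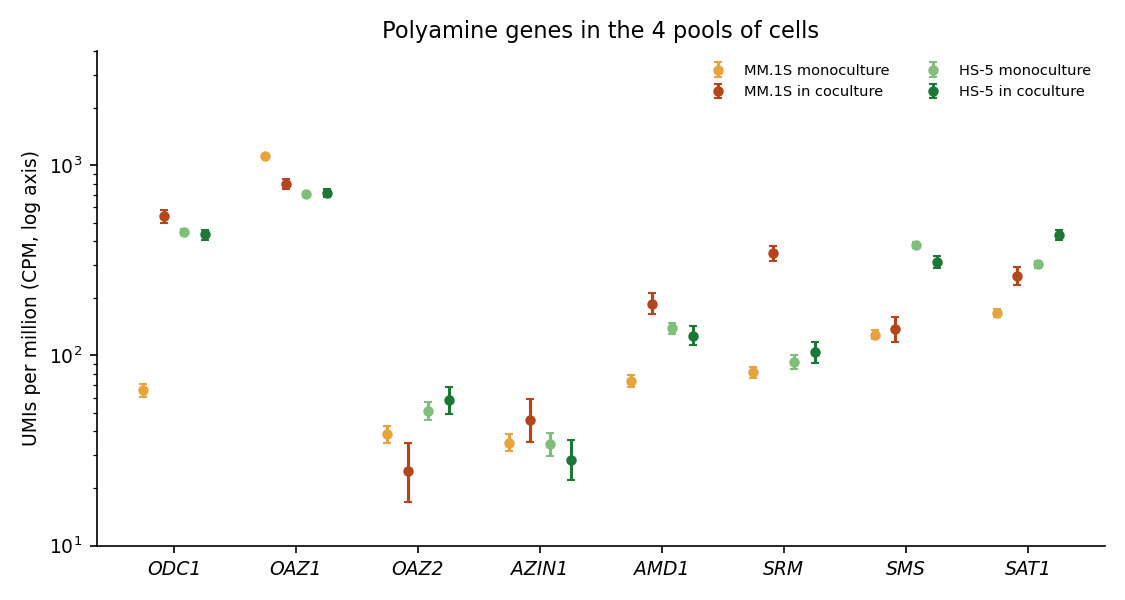
Levels of the 8 genes in CPM (log axis) in the 4 pools of cells, with points for the pooled level and bars for exact Poisson 95% intervals, which cover counting error only. ODC1 stands at 65.5 CPM in MM.1S cells alone and between 433 and 538 CPM in the other pools.

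RNA of HS-5 cells can enter the droplets of MM.1S cells in coculture. From the HS-5-specific genes, free HS-5 RNA was estimated at 1.58% of the UMIs of these cells, which would carry 6.85 CPM of ODC1. The 663 cells without a single HS-5-specific UMI had 519 CPM (454 to 590), and the 109 cells with the highest HS-5 shares kept as MM.1S, above 0.1, had 492 CPM (335 to 699). The intervals overlapped, and the log2 ratio was 3.02 after the free RNA was subtracted as well.

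Depth differed between the MM.1S pools, so ODC1 was also read within bins of UMIs per cell. From 1000 to under 2000 UMIs, 1602 monoculture cells had 60.4 CPM (51.1 to 71.0) and 329 coculture cells 598 CPM (528 to 675). At 2000 UMIs or more, 2268 monoculture cells had 67.1 CPM (61.5 to 73.1) and 50 coculture cells 517 CPM (402 to 654). The log2 ratio was 3.28 and 2.93 in these bins. In HS-5 cells it was 0.37 (-0.23 to 1.00) under 500 UMIs and 0.18 (-0.03 to 0.40) from 500 to under 1000. From 1000 to under 2000 it was 0.06 (-0.12 to 0.23), and at 2000 or more -0.34 (-0.53 to -0.16). The near-zero pooled value of HS-5 averaged over these bins. Only the interval of the deepest bin excluded 0, so a rise in shallower HS-5 cells was not shown. In that deepest bin the median was 2579 UMIs in coculture and 3289.5 alone.

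The difference in MM.1S was spread over the cells. With every cell thinned to 500 UMIs and shallower cells left out, which removed none of the MM.1S monoculture cells, 446 of those in coculture and 217 and 301 HS-5 cells, 3.04% of 3947 MM.1S cells alone held an ODC1 UMI (2.53 to 3.62%, exact Clopper-Pearson). In coculture 23.1% of 1200 MM.1S cells did (20.7 to 25.6%). In HS-5 cells the share was 17.8% of 3515 alone (16.6 to 19.1%) and 19.4% of 1802 in coculture (17.6 to 21.3%). Unthinned shares were 14.6, 32.0, 38.0 and 34.2% in the same order. A cell type without ODC1 is not in these libraries, and the free RNA given above is the measure of background. Poisson counts of the same mean would give 3.09 and 23.3% in MM.1S cells alone and in coculture, close to the shares seen, with a variance over mean of 1.03 and 1.04. In HS-5 cells the variance over mean was 1.10 alone and 1.13 in coculture. At this depth no separate group of ODC1-high MM.1S cells was detectable, and 6 of the 1200 coculture cells held 3 ODC1 UMIs, none more.

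**Figure D2:**
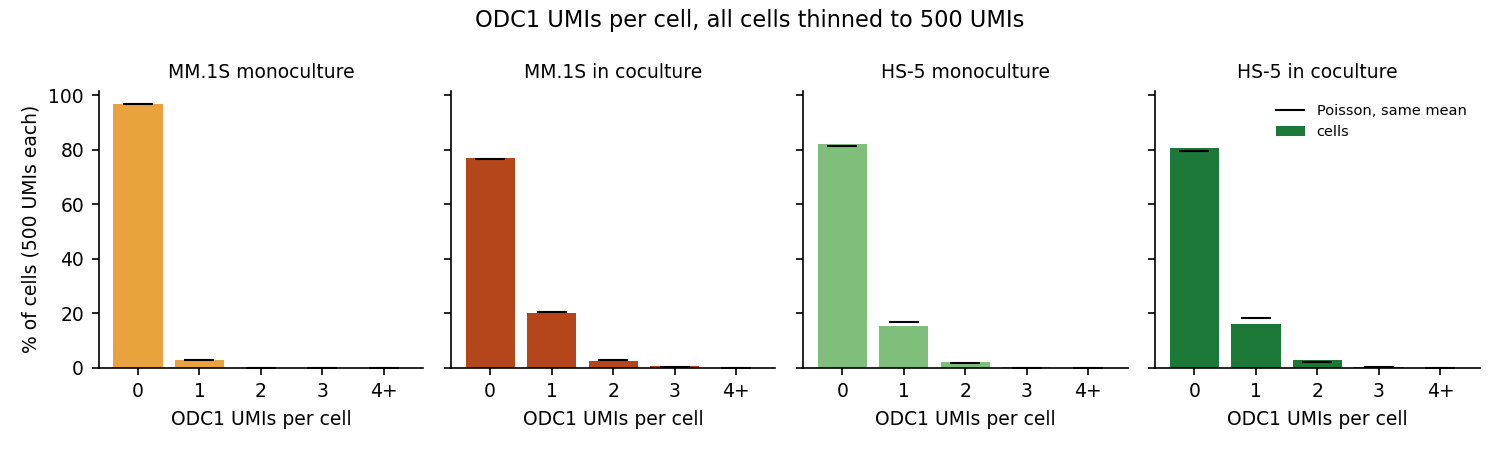
Percent of cells (y axis) by number of ODC1 UMIs per cell (x axis) in the 4 pools, each cell thinned to 500 UMIs; bars are cells and black dashes a Poisson distribution of the same mean. MM.1S cells in coculture follow the dashes, with 20.1% of cells at 1 UMI.

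ODC1 transcription is known to vary over the cell cycle, so it was set beside G2/M genes such as MKI67 and CCNB1 (a list of 28). MM.1S cells in coculture with at least 3 UMIs of the list at 500 UMIs had 719 CPM of ODC1 (584 to 876, 112 cells, median 1093 UMIs before thinning) and the others 522 CPM (478 to 568, 1088 cells, median 787.5). In the MM.1S monoculture the values were 79.7 CPM (65.8 to 95.7, 411 cells, median 3219 UMIs) and 63.2 CPM (58.1 to 68.6, 3536 cells, median 2125.5), and the part of the cells' depth in these gaps was not tested. The size of the gap depended on the limit, and its direction in MM.1S did not. With at least 2 UMIs of the list, MM.1S cells in coculture had 633 CPM (541 to 735) and the others 519 CPM (473 to 569). These intervals overlapped, and those with at least 3 UMIs did not. In the MM.1S monoculture the limit of 2 gave 77.9 CPM (67.3 to 89.7) and 61.6 CPM (56.3 to 67.3). There the intervals overlapped with at least 3 UMIs and were just apart with at least 2. HS-5 cells with at least 3 UMIs showed less of a gap, with 441 and 457 CPM alone and 436 and 421 CPM in coculture. MM.1S cells with no UMI of the list at 500 UMIs had 56.9 CPM alone and 518 CPM in coculture.

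Of the enzymes after ODC1, SRM and AMD1 were higher in MM.1S cells of the coculture and SMS was not. SRM, the spermidine synthase (chromosome 1, 11054584 to 11060024, minus strand), had 81.5 CPM in MM.1S alone (76.1 to 87.1) and 344 CPM in coculture (313 to 377). Its fold was 4.22 (3.76 to 4.74), a log2 ratio of 2.07. HS-5 cells had 92.5 CPM alone (85.0 to 100) and 104 CPM in coculture (91.5 to 117). SRM in MM.1S cells of the coculture was thus above all 3 other pools. Within the coculture library, where both lines shared the preparation, the log2 ratio of HS-5 over MM.1S was -1.72 for SRM and -0.31 for ODC1. AMD1, S-adenosylmethionine decarboxylase (chromosome 6, 110874770 to 110895713, plus strand), had 73.7 CPM in MM.1S alone (68.6 to 79.1) and 187 CPM in coculture (165 to 212), a fold of 2.54 (2.19 to 2.93). HS-5 cells had 139 CPM alone (130 to 149) and 127 CPM in coculture (114 to 142). Bins of depth in MM.1S were read from 1000 to under 2000 UMIs and at 2000 or more. The log2 ratio there was 2.06 (1.76 to 2.38) and 1.5 (0.94 to 2.03) for SRM. For AMD1 it was 1.52 (1.14 to 1.91) and 0.99 (0.27 to 1.64). From 500 to under 1000 UMIs, where the monoculture held 77 cells, it was 2.77 for SRM (1.41 to 4.68) and 1.09 for AMD1, whose interval included 0 (-0.07 to 2.58).

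SMS, the spermine synthase (chromosome X, 21940573 to 21994835, plus strand), had 129 CPM in MM.1S alone (122 to 136) and 137 CPM in coculture (118 to 159). The fold was 1.07 (0.910 to 1.25), and the log2 ratio of 0.09 turned to -0.09 when the median of genes of at least 50 CPM was set to 0. HS-5 cells held more SMS, 381 CPM alone (366 to 397) and 311 CPM in coculture (289 to 334), with a log2 ratio of -0.29. The number of SRM UMIs per SMS UMI, which no scaling of the libraries can change, went from 0.632 in MM.1S alone (0.580 to 0.690) to 2.5 in coculture (2.10 to 2.99), against 0.243 and 0.334 in HS-5 cells. UMIs of different genes are compared here only between pools.

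**Figure D3:**
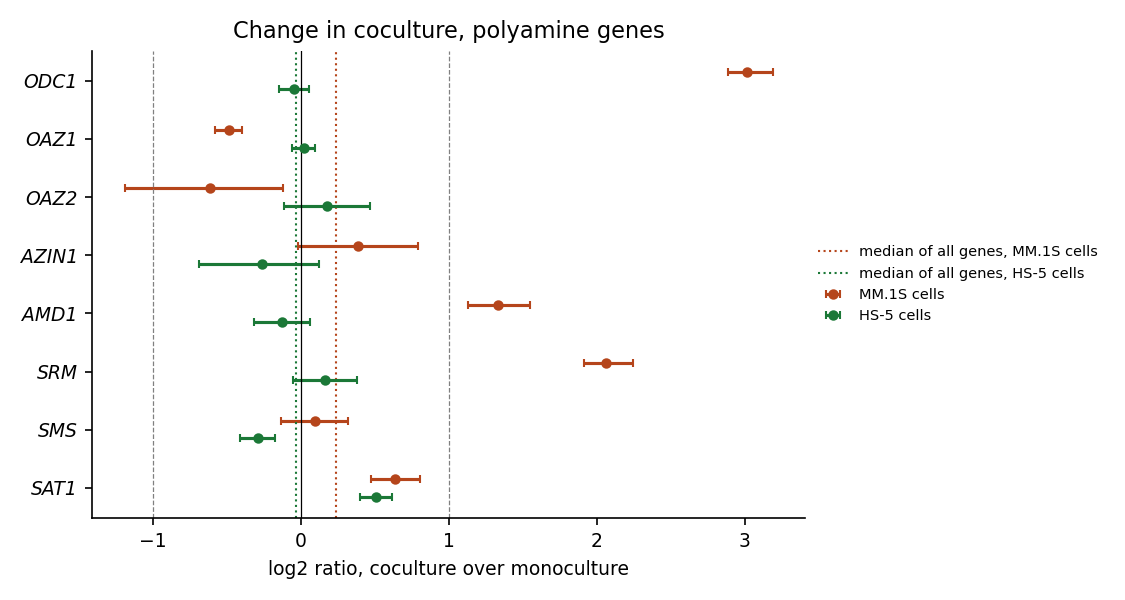
Log2 ratio of coculture over monoculture (x axis) of the 8 genes in MM.1S and HS-5 cells, with exact 95% intervals for counting error; dotted lines are the medians of all genes and dashed lines mark 2-fold. ODC1, SRM and AMD1 lie past 2-fold in MM.1S cells, and no gene does in HS-5 cells.

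Both antizymes were lower in MM.1S cells of the coculture, by less than 2-fold. OAZ1 (chromosome 19, 2269509 to 2273490, plus strand), the main antizyme of most tissues, had 1116 CPM in MM.1S alone (1096 to 1137) and 796 CPM in coculture (749 to 846). This was a fold of 0.714 (0.669 to 0.760). HS-5 cells had 702 CPM alone and 712 CPM in coculture. The log2 ratio of HS-5 over MM.1S was -0.67 between the monocultures and -0.16 within the coculture. In the shallow bin of 500 to under 1000 UMIs the MM.1S ratio was 0.13 (-0.28 to 0.56), with 77 monoculture cells, and from 1000 to under 2000 UMIs it was -0.47 (-0.64 to -0.30). OAZ2 (chromosome 15, 64687573 to 64703281, minus strand) had 38.4 CPM in MM.1S alone (34.8 to 42.4) and 24.8 CPM in coculture (17.1 to 34.8, 33 UMIs), and 51.3 and 58.2 CPM in HS-5 cells. OAZ1 shares 3966 bases of its strand with the gene model AC005258.1 and OAZ2 overlaps antisense genes, so their counts depend on how the authors assigned such reads. ODC1 holds the small nucleolar RNA gene SNORA80B on its own strand, over 136 bases.

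There were 0.0587 ODC1 UMIs per OAZ1 UMI in MM.1S cells alone (0.0542 to 0.0634) and 0.675 in coculture (0.614 to 0.743). HS-5 cells had 0.636 alone (0.606 to 0.668) and 0.608 in coculture (0.563 to 0.656). In this ratio the MM.1S monoculture stood apart and the other 3 pools lay close together. The ratio holds the same ODC1 UMIs by which ODC1 was chosen, so it is not a separate observation. AZIN1, the antizyme inhibitor, had 34.8 CPM in MM.1S alone (31.3 to 38.6) and 45.8 CPM in coculture (35.1 to 58.9, 61 UMIs), a fold of 1.32 (0.987 to 1.73). HS-5 cells had 34.2 and 28.3 CPM. Without the cells that held any HS-5-specific UMI, the AZIN1 log2 ratio in MM.1S went from 0.39 to -0.16, so its direction is not settled at this depth. AZIN1-AS1, a gene antisense to it, had 14.3 CPM in MM.1S alone and 6.01 CPM in coculture (8 UMIs), and whether reads were counted by strand is not given in the sources used here.

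SAT1, the acetyltransferase that opens polyamine breakdown (chromosome X, 23783173 to 23786226, plus strand), was the only one of the 8 whose interval lay above a fold of 1 in both lines. In MM.1S it had 168 CPM alone (160 to 176) and 261 CPM in coculture (235 to 290), a fold of 1.56 (1.39 to 1.75). In HS-5 it had 301 CPM alone (287 to 315) and 428 CPM in coculture (403 to 455), a fold of 1.42 (1.32 to 1.54). The MM.1S difference was not seen within bins of depth. From 1000 to under 2000 UMIs MM.1S cells had 215 CPM alone (197 to 234) and 214 CPM in coculture (173 to 262), and at 2000 UMIs or more 151 CPM (142 to 160) and 135 CPM (79.9 to 213). SAT1 was lower in deeper MM.1S cells of either culture, and the coculture held more shallow cells. Within these bins, too, coculture cells were shallower, with medians of 1286 against 1538.5 and 2362.5 against 2998.5 UMIs. The part of depth in the pooled MM.1S difference was not tested. In HS-5 the difference was seen in the same bins. From 1000 to under 2000 UMIs there were 247 against 417 CPM, a log2 ratio of 0.75 (0.55 to 0.96). At 2000 or more there were 345 against 476 CPM (0.46, 0.29 to 0.64). The log2 ratio was 0.71 (0.45 to 0.96) from 500 to under 1000, and under 500 its interval included 0 (0.30, -0.38 to 0.99). Over the 20 alternatives given below, the HS-5 log2 ratio stayed above 0 but lay between 0.20 and 0.87. HS-5 cells with no G2/M UMI at 500 UMIs had 287 CPM alone (255 to 321) and 344 CPM in coculture (302 to 392). These intervals overlapped.

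**Figure D4:**
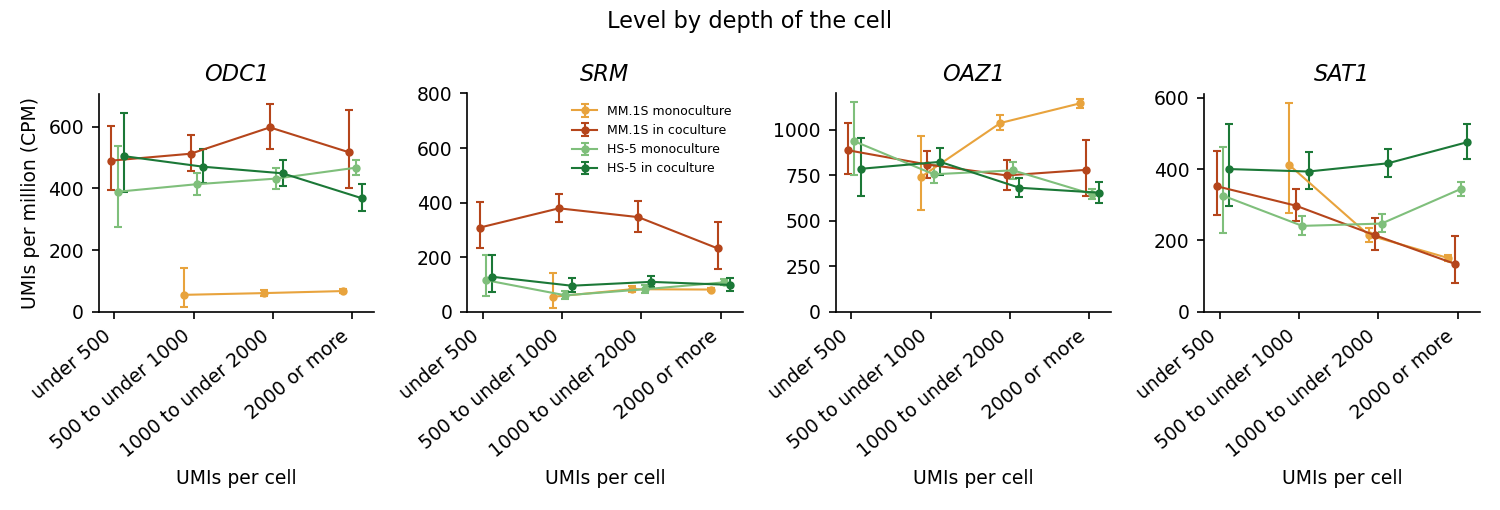
Level in CPM (y axis, from 0) of ODC1, SRM, OAZ1 and SAT1 by the UMIs per cell (x axis, 4 bins) in the 4 pools, with exact Poisson 95% intervals; MM.1S cells alone had no cell under 500 UMIs. ODC1 and SRM keep the cultures of MM.1S apart in every bin that both hold, while the SAT1 intervals of both MM.1S pools overlap in each such bin, with 215 and 214 CPM from 1000 to under 2000 UMIs.

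In HS-5 cells of the coculture SAT1 was 514 CPM in cells with at least 3 G2/M UMIs (474 to 557, 789 cells, median 1188 UMIs) and 348 CPM in the others (315 to 383, 1013 cells, median 1003). In HS-5 alone the values were 317 CPM (299 to 336) and 276 CPM (255 to 297). MM.1S cells had it the other way round, with 131 CPM (113 to 151) and 173 CPM (165 to 182) alone and 153 CPM (94.4 to 233) and 260 CPM (229 to 293) in coculture. Depth went with these groups as well. Set against synthesis, SAT1 UMIs per ODC1 UMI were 2.56 in MM.1S alone (2.34 to 2.80), 0.486 in coculture (0.426 to 0.553), 0.673 in HS-5 alone (0.634 to 0.714) and 0.990 in HS-5 in coculture (0.908 to 1.08).

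Counted together, 3 of the 8 members were past 2-fold higher and 0 lower in MM.1S cells of the coculture. Of 7834 genes there, 19.0% were past 2-fold higher and 5.80% lower. ODC1, chosen by its rise in this comparison, is among the 3 and also enters the members' median. The median log2 ratio of the 8 was 0.51 and that of all genes 0.24. The table as a whole was thus shifted upwards, and relative to its median the ODC1 log2 ratio was 2.83 when that was taken over genes of at least 50 CPM. In HS-5 cells 0 members were past 2-fold, with 1.21% of 8811 genes higher and 1.82% lower, and medians of -0.01 and -0.04. The monocultures differed past 2-fold in ODC1 (log2 ratio 2.75, HS-5 over MM.1S) and SMS (1.56), both higher in HS-5, where 38.1% of 8734 genes were; 15.3% were lower. Within the coculture library OAZ2 (1.20) and SMS (1.17) were past 2-fold higher in HS-5 and SRM past 2-fold lower, beside 26.1 and 15.9% of 8888 genes. The monoculture of MM.1S enters both the first and the third of these comparisons.

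Cells with an ODC1 UMI were also compared with cells without, at 500 UMIs per cell, for the 7 other members in each pool. Of the 28 pairs, 1 had intervals that did not overlap: in HS-5 cells in coculture no AZIN1 UMI was found in the 349 cells with ODC1 (0 to 21.2 CPM), and the 1453 cells without it had 37.2 CPM (24.5 to 54.1). In MM.1S cells in coculture AMD1 had 261 CPM with ODC1 (182 to 361) and 160 CPM without (126 to 201), and SRM 318 and 362 CPM. SAT1 in the same cells had 188 CPM with ODC1 (123 to 276) and 306 CPM without (257 to 360). Overlap of separate intervals does not show that levels are alike, and no interval of these ratios was made. Whether ODC1 and these members vary together from cell to cell was therefore not settled at this depth.

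Beyond the 8 members, 43 further genes that supply, transport, use or regulate polyamines were read. In MM.1S cells 21 of them reached the minimum level, of which 2 were past 2-fold higher and 2 lower, with a median log2 ratio of -0.04. ATP13A3, which carries polyamines across membranes, was higher: 22.8 CPM alone and 99.2 CPM in coculture, a log2 ratio of 2.07 (1.80 to 2.43). HS-5 cells had 269 and 224 CPM of it. DOHH, the hydroxylase that completes the spermidine-derived hypusine of eIF5A, had 12.6 and 36.1 CPM (1.45, 1.01 to 2.01). DHPS, the enzyme of the step before it, was lower within 2-fold, with 26.6 and 13.5 CPM (-0.93, -1.75 to -0.29). The lower pair were MYC, given above, and MAT2B, a regulatory subunit of the S-adenosylmethionine synthetase, with 88.6 and 36.1 CPM (-1.27, -1.75 to -0.88).

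The others of the 21 stayed within 2-fold in MM.1S. MTAP, which salvages the methylthioadenosine that SRM and SMS release, had 74.7 and 124 CPM (0.72, 0.48 to 0.98). EIF5A, the protein that receives hypusine, had 204 and 123 CPM (-0.72, -0.96 to -0.50). SLC7A1, a carrier of arginine and ornithine, had 26.7 and 43.6 CPM (0.68). ADI1 of the salvage pathway had 106 and 77.4 CPM (-0.46). SLC3A2 had 189 and 180 CPM, ALDH18A1 53.6 and 59.4 CPM, AHCY 42.4 and 41.3 CPM, and OAT, which links ornithine to proline and glutamate, 50.4 and 37.6 CPM. ENOPH1 had 26.6 and 39.8 CPM. In HS-5 cells 22 of the 43 reached the minimum and 0 were past 2-fold, with OAT at 114 and 136 CPM, SLC3A2 at 131 and 91.3 CPM, ADI1 at 180 and 207 CPM, EIF5A at 175 and 166 CPM, MTAP at 94.6 and 95.7 CPM and AHCY at 68.5 and 57.0 CPM. The oxidases SMOX and PAOX of polyamine breakdown and the minor antizyme OAZ3 lay below the minimum in both lines. Pseudogenes named after AMD1 and SRM held at most 7 UMIs in any pool.

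**Figure D5:**
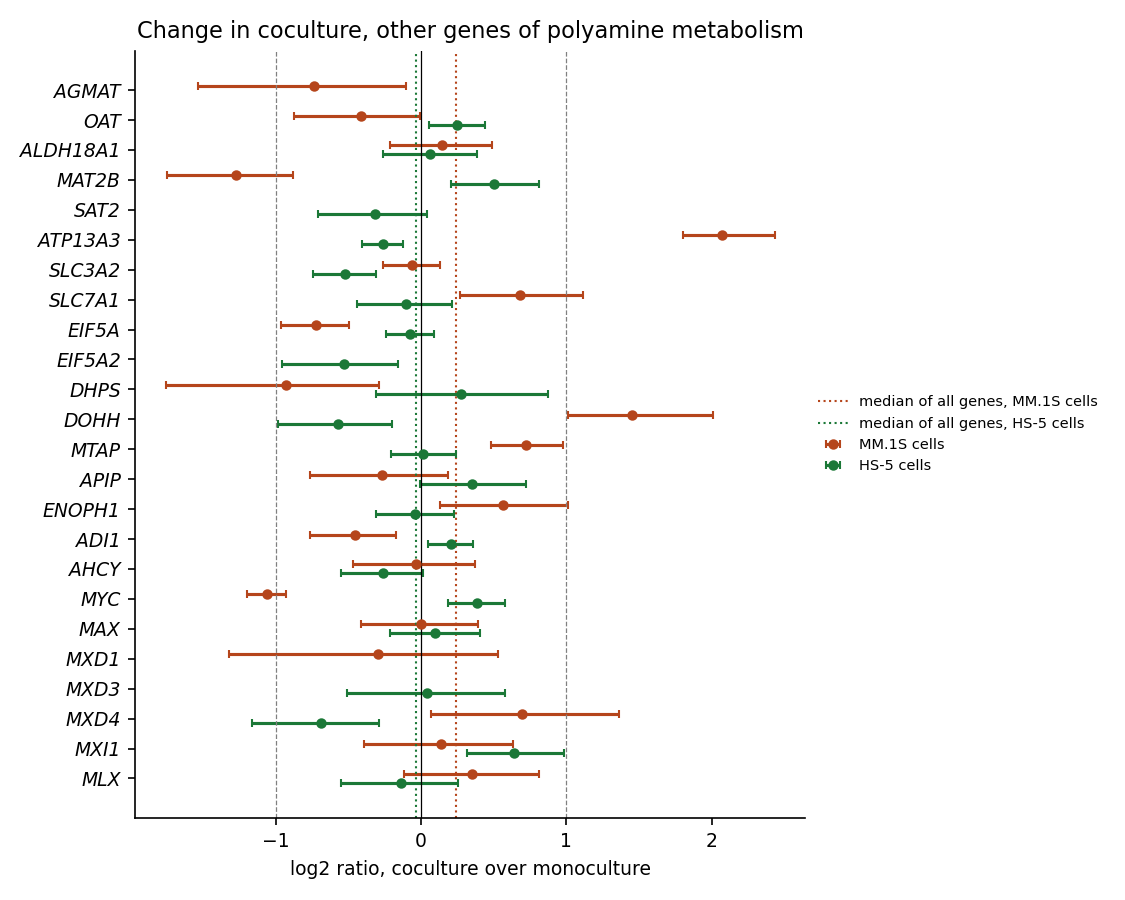
Log2 ratio of coculture over monoculture (x axis) in MM.1S and HS-5 cells for those of the 43 further genes that reached a mean of 10 CPM, with exact 95% intervals for counting error. ATP13A3 and DOHH lie above 2-fold and MAT2B and MYC below in MM.1S cells, and no gene passes 2-fold in HS-5 cells.

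ODC1's pattern over the 4 pools, low in MM.1S alone and several-fold higher in the other 3, was close to that of some other genes. By the distance between log2 profiles centred on their means, over the 4 pools and 3450 genes whose mean was 50 CPM or more, LAMB3 (0.23), RUNX1 (0.37), EIF3B (0.39), KCNJ3 (0.45) and AL135790.1 (0.47) were nearest. LAMB3, a laminin chain, had 11.5 and 96.9 CPM in MM.1S cells and 95.6 and 74.7 CPM in HS-5 cells. RUNX1, a transcription factor, had 11.0 and 87.9 CPM and then 69.8 and 54.5 CPM. Among the other members AMD1 was nearest, at a distance of 1.59 and rank 357. Of the 1490 genes past 2-fold higher in MM.1S cells of the coculture, 866 (58.1%) were also past 2-fold higher in the HS-5 than in the MM.1S monoculture, as ODC1 was and SRM and AMD1 were not. These comparisons share the MM.1S monoculture, and nothing is read from the overlap.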

How the data were processed

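Single cells of 3 Drop-seq libraries were analysed, 1 per condition. The values that the authors deposited are whole-number UMI counts for each gene in each barcode, with no scaling. The submitters' processing notes name Cell Ranger 3.0.2, UMI-tools 1.0.0, STAR 2.5.3a, featureCounts 1.6.4 of Subread, SAMtools 1.9 and GRCh38, without their roles. The annotation and the choice of barcodes are not given in the sources used here.

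Barcodes under 200 genes were dropped. Genes with at least 50 CPM in one monoculture and at least 50 times the other (pseudocount 1) were taken as line-specific. Among MM.1S-specific genes KIAA0040 lay just inside (52.8-fold) and LAPTM5 just outside (48.7), and among HS-5-specific genes BCAR3 (50.2) and LTBP1 (49.5). Coculture cells with at least 3 line-specific UMIs and an HS-5 share below 0.2 or above 0.8 were assigned to MM.1S or HS-5. Doublets of 2 cells of 1 line are not recognised by it. Pairs of libraries shared 44, 39 and 76 barcodes.

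UMIs were summed per pool and scaled to CPM. Intervals of ratios are exact (Clopper-Pearson on the share of the summed UMIs). A level of 3 UMIs equals 2.25 CPM in the MM.1S pool of the coculture. The scripts were run on simulated counts with known changes. Named were the 8 members, genes of the wider list past 2-fold or averaging 50 CPM or more, the 5 genes nearest to ODC1 and pseudogenes or antisense genes of members; SLC7A1, DHPS, OAT, AHCY, ENOPH1, SMOX, PAOX, OAZ3, FN1 and other markers are named besides. Members and lists were chosen with earlier results of these data known. The 20 alternatives (16 planned, 4 added after seeing the data) concern scaling, pooling, cells, depth, line assignment, free RNA, transcript length and minimum level. Python 3.11.15, numpy 2.4.6, scipy 1.17.1 and pandas 2.3.3 were used.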

Additional observations from a re-analysis of the deposited data

Results flagged for a closer look

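The 106 coculture cells with a mixed share of line-specific UMIs, left out of both lines as doublets, held 410 CPM of ODC1 (319 to 519, 69 UMIs). They are outside the comparisons of the lines. Their interval overlaps those of the HS-5 cells (433 CPM) and of the MM.1S cells (538 CPM) of the same library, and lies above that of the MM.1S monoculture (65.5 CPM).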

How the results depend on the processing

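In MM.1S cells ODC1, SRM and AMD1 were past 2-fold higher under all 20 alternatives, and in HS-5 cells no member passed 2-fold under any of them. The ODC1 log2 ratio of 3.02 in MM.1S became 2.83 with the median of genes of at least 50 CPM set to 0, 2.87 without mitochondrial and ribosomal protein genes in the scaling, 3.25 in cells of 500 to 1000 UMIs and 3.23 in cells with no G2/M UMI among all their UMIs, both of these chosen after seeing the data. In HS-5 its -0.05 became 0.12 with each cell weighing the same, 0.16 with cells thinned to 500 UMIs, 0.18 in cells of 500 to 1000 UMIs and 0.13 without a G2/M UMI. The members' median of 0.51 in MM.1S became 0.17 in cells with at least 1000 UMIs and 0.99 with a minimum of 50 CPM, which leaves out OAZ2 and AZIN1, and in HS-5 it became 0.12 in cells of 500 to 1000 UMIs. In that last setting MM.1S holds 77 monoculture cells, SRM stood at 2.83 (2.07 in all cells), AZIN1 at 2.03 and SAT1 at -0.40, and with the length trend removed SAT1 stood at 1.03 in MM.1S. The share of all genes past 2-fold moved too: in HS-5 from 1.21% higher to between 0.670 and 11.9%, and from 1.82% lower to between 1.02 and 11.3%, highest in cells without a G2/M UMI, and in MM.1S from 19.0% higher to 9.79% with no minimum level and from 5.80% lower to 16% in cells of 500 to 1000 UMIs. The cause of these shifts was not tested. Longer transcripts had higher ratios in MM.1S and lower ones in HS-5 (Spearman's rho 0.28 and -0.27 across genes, which are not independent replicates). With genes from 20 CPM up, 4 of the 5 nearest genes to ODC1 were the same. Depth limits OAZ2 and AZIN1 most, with 33 and 61 UMIs in MM.1S cells of the coculture. No paired analysis was possible because each condition has 1 library.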
